A study of Mus musculus with 6 samples.

Results

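The 8 genes described here, Spp1, Gpnmb, Trem2, Cd9, Fabp5, Lgals3, Apoe and Arg1, are used together as markers of scar-associated macrophages. They were taken by gene name from a table of read counts for 49315 mouse genes, and all 8 were found. RNA-Seq had been carried out on whole-lung cell suspensions of mice, C57BL/6 by the labels and male C57BL/6J by the methods, after oropharyngeal instillation of saline (sham) or bleomycin (BLM), a DNA-damaging drug that brings on lung fibrosis. The cells of each treatment were sequenced unsorted, depleted of cells carrying Lamp1 on their surface (Lamp1-depleted), or enriched for them (Lamp1-enriched), which gave 6 libraries with 1 library per condition. The study places these libraries at 21 days after instillation, and by its methods each tube pooled 2 to 3 lungs of a group, so a library stands for a pool of mice. The sources used here do not say whether the 3 fractions of a treatment came from the same lungs. The labels name no transgene and no further agent in either group. Libraries held 30236120 to 52918696 counted reads.

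Scar-associated macrophages are monocyte-derived cells that gather in fibrotic lung and liver, and closely related lipid-associated macrophages are found in fat and atherosclerotic plaques. They take up dead cells and lipid, sense lipid through the receptor Trem2, carry a large lysosomal compartment, and release osteopontin (the product of Spp1), matrix enzymes and growth factors that act on fibroblasts. None of the 8 genes is limited to these cells: resident alveolar macrophages also express Lgals3, Apoe and Fabp5, and endothelial cells, platelets and epithelial cells express Cd9.

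All values below are CPM (reads per 1000000 counted reads) after TMM scaling, a correction for library composition, and differences between libraries are given as log2 ratios. With 1 library per condition, the 95% intervals cover counting error only and say nothing of the spread between mice. A gene was counted as higher in unsorted cells when its log2 ratio to each sorted fraction was at least 2, which is 4-fold.

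The promoters of the 3 genes with the highest BLM levels over sham that have a window in the RefSeq table are shown first, so that the sequence before genes that moved together can be read beside their values. Each is 280 bases long on build GRCm38.p6, written 5′ to 3′ on the strand of the gene, and ends 30 bases into the transcript. The windows are chr5:104434861-104435140 (plus strand) for Spp1, chr6:49036268-49036547 (plus strand) for Gpnmb and chr17:48346151-48346430 (plus strand) for Trem2. Capitals mark matches on either strand to TATAAA (the letters of the TATA box), TGANTCA or GAGGAA, wherever they lie in the window. TGANTCA is a loose form of the AP-1 site, N being any base. GAGGAA is a core bound by the macrophage factor PU.1, read as TTCCTC on the other strand.
Spp1: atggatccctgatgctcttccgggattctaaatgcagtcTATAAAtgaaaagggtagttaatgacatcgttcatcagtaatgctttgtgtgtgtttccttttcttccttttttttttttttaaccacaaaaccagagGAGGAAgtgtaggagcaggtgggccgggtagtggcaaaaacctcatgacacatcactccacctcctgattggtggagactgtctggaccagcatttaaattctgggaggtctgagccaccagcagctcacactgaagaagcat
Gpnmb: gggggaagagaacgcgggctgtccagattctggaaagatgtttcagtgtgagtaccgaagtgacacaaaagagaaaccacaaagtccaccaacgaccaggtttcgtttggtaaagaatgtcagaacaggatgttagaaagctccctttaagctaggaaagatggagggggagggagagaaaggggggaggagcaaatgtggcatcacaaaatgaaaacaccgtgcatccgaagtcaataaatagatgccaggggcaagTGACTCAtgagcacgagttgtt
Trem2: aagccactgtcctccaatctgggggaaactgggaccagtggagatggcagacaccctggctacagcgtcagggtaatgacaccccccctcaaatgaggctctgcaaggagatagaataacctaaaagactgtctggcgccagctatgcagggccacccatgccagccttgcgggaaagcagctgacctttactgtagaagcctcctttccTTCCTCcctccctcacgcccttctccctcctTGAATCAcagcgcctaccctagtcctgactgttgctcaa

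Spp1 held TATAAA at base 40, which is position -211 relative to the transcript start, and GAGGAA at base 138. Gpnmb held TGANTCA at base 259, which is position 8 and so within the transcript. Trem2 held GAGGAA at base 211 and TGANTCA at base 242. No matches overlapped. TGANTCA was present in 2 of the 6 members' windows of 300 bases and in 7.81% of all 32851 promoter windows of that length. GAGGAA was present in 3 of 6 and in 28.3% of all windows, and TATAAA in 1 of 6 and in 13.6%. GGGCGG, the GC box, was present in 2 of 6, those of Cd9 and Lgals3, and in 35.7% of all windows. The E-box TCACGTG or TCATGTG, read by the lysosomal factors MITF and TFE3, matched none of the 6 members' windows and 7.40% of all windows. These matches describe letters and not binding. Fabp5 and Arg1 had no window in the table.

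After BLM, 7 of the 8 genes stood at least 4-fold above both sorted fractions in unsorted cells, against 3.30% of all 22801 genes tested. In sham-treated lung the count was 0 of 8, against 2.28% of 23233 genes. Cd9 was the exception in BLM. Over the 8 genes, the median of the lower log2 ratio was 2.58 in BLM, where all genes had a median of -0.48, and 0.16 in sham, where all genes had a median of -0.38. In these bulk libraries, fewer cells of a type and less RNA per cell cannot be told apart.

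**Figure D1:**
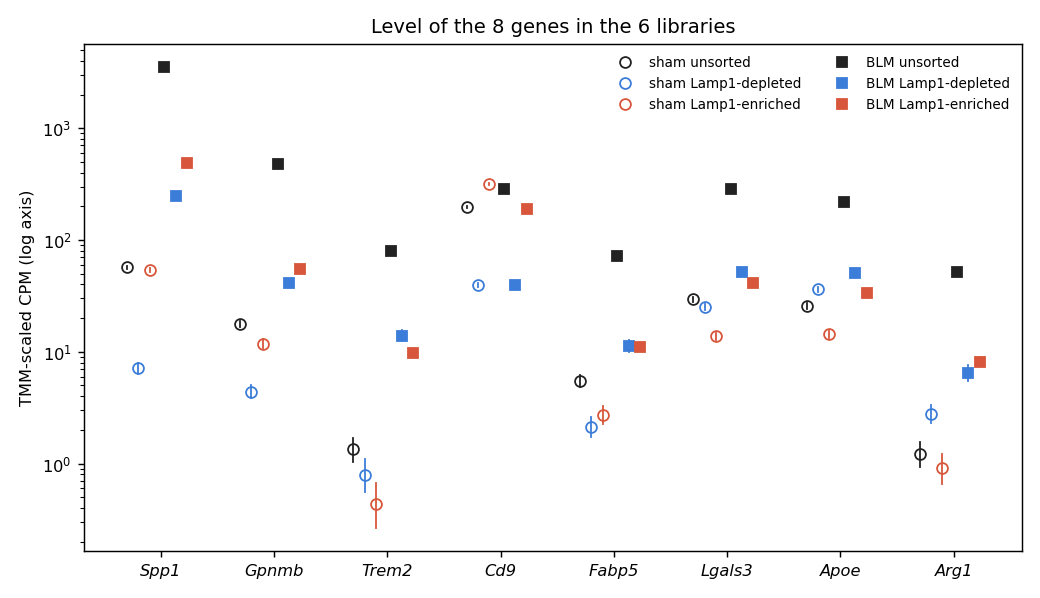
Level of each gene in each library, in TMM-scaled CPM on a log axis, with open circles for sham, filled squares for BLM, colors for the cell fraction, and vertical lines for the 95% counting interval. The BLM unsorted library is the highest for every gene except Cd9, which is highest in the sham Lamp1-enriched library at 316 CPM.

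Of the secreted proteins, Spp1 encodes osteopontin, a phosphoprotein that binds integrins and CD44 (ENSMUSG00000029304; chr5:104435118-104441050, plus strand). Its level in sham lung was 56.9 CPM in unsorted, 7.09 in Lamp1-depleted and 53.7 in Lamp1-enriched cells, and in BLM lung it was 3504, 248 and 485 CPM in the same order. Every BLM library was thus above every sham library, and in sham the unsorted and Lamp1-enriched libraries had overlapping counting intervals. The unsorted-over-depleted log2 ratio of Spp1 was 3.0 in sham (95% interval 2.84 to 3.18) and 3.82 in BLM (3.78 to 3.86). Against the Lamp1-enriched fraction, by contrast, its log2 ratio was 0.08 in sham (0.00 to 0.16) and 2.85 in BLM (2.83 to 2.87), so the gap between unsorted and Lamp1-enriched cells was seen in BLM. By reads per kilobase of exon, Spp1 ranked 11 among 21811 protein-coding genes in BLM unsorted cells, where 138232 reads were counted on it. It ranked 50 in the BLM Lamp1-enriched library, 72 in the BLM Lamp1-depleted library and 747 in sham unsorted cells.

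Part of Spp1 is shared with another annotated feature. Gm42793, an unconfirmed transcript model on the same strand (chr5:104435121-104436372), covers 309 of the 1648 exon bases of Spp1. It held 71, 9 and 2 reads in sham unsorted, Lamp1-depleted and Lamp1-enriched libraries and 1801, 24 and 217 in BLM, which is 0.0809% to 2.79% of the reads on Spp1. Its reads also peaked in BLM unsorted cells, and reads that fall on the shared bases cannot be told apart between the 2 features.

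Lgals3 encodes galectin-3, a sugar-binding lectin that macrophages release and that also binds damaged lysosomes (ENSMUSG00000050335; chr14:47367751-47386160, plus strand). Its level was 29.5, 25.1 and 13.7 CPM in sham unsorted, Lamp1-depleted and Lamp1-enriched libraries, and 287, 51.9 and 41.3 CPM in BLM. The 3 sham values lay within a factor of 2.15 of each other, whereas the BLM unsorted value was 5.52-fold and 6.94-fold above the sorted ones. Its log2 ratio over the Lamp1-depleted fraction went from 0.24 (0.12 to 0.35) in sham to 2.46 (2.38 to 2.56) in BLM, and over the Lamp1-enriched fraction from 1.11 (0.97 to 1.24) to 2.79 (2.73 to 2.86).

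Apoe encodes apolipoprotein E, which carries lipid out of macrophages and is a ligand of Trem2 (ENSMUSG00000002985; chr7:19696109-19699188, minus strand). Its level was 25.7, 36.2 and 14.3 CPM in sham unsorted, Lamp1-depleted and Lamp1-enriched libraries and 220, 50.9 and 33.4 CPM in BLM. In sham, Lamp1-depleted cells were the highest of the 3, and in BLM unsorted cells were. The log2 ratio over the Lamp1-depleted fraction changed sign between the treatments, at -0.49 (-0.60 to -0.39) in sham and 2.11 (2.02 to 2.20) in BLM. Of the 7 genes counted in BLM, Apoe was the nearest to the threshold. It was 4.32-fold above the Lamp1-depleted library, and its log2 ratio was 1.96 with DESeq2 size factors in place of TMM, just under 2.

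Of the membrane proteins, Trem2 is the lipid-sensing receptor that signals through the adaptor Tyrobp (ENSMUSG00000023992; chr17:48346401-48354147, plus strand). It was close to the bottom of detection in sham, at 1.34, 0.790 and 0.435 CPM from 65, 36 and 20 reads. In BLM it reached 79.4, 13.9 and 9.76 CPM in the unsorted, Lamp1-depleted and Lamp1-enriched libraries. The sham counting intervals of neighboring libraries overlapped, and the 3 BLM intervals did not overlap with each other or with sham. Its unsorted log2 ratio in BLM was 2.51 (2.34 to 2.69) over Lamp1-depleted and 3.02 (2.89 to 3.16) over Lamp1-enriched cells, against 0.75 (0.15 to 1.39) and 1.60 (0.88 to 2.42) in sham.

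Gpnmb is a transmembrane glycoprotein of lysosomes and the cell surface that is induced when macrophages are loaded with lipid (ENSMUSG00000029816; chr6:49036546-49070929, plus strand). It stood at 17.7, 4.41 and 11.8 CPM in sham unsorted, Lamp1-depleted and Lamp1-enriched libraries, and at 483, 40.9 and 54.6 CPM in BLM. Unsorted cells were the highest and Lamp1-depleted cells the lowest in each treatment. In BLM its log2 ratio was 3.56 (3.46 to 3.66) over the Lamp1-depleted and 3.14 (3.09 to 3.20) over the Lamp1-enriched fraction, the highest of the 8 genes against the latter. In sham the same ratios were 2.01 (1.78 to 2.24) and 0.58 (0.43 to 0.74).

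Cd9, a tetraspanin that organizes other membrane proteins, took another course (ENSMUSG00000030342; chr6:125460266-125494791, minus strand). Its level was 196, 39.4 and 316 CPM in sham unsorted, Lamp1-depleted and Lamp1-enriched libraries, and 283, 39.6 and 191 CPM in BLM. The Lamp1-depleted libraries were low and alike in both treatments, and the Lamp1-enriched library was the highest in sham. The log2 ratio of unsorted over Lamp1-enriched cells was -0.69 (-0.72 to -0.65) in sham and 0.57 (0.53 to 0.60) in BLM, while that over Lamp1-depleted cells was 2.32 (2.24 to 2.39) and 2.83 (2.73 to 2.94). Platelets and endothelial cells, which carry Cd9, also differed between fractions. The 8 platelet markers summed to 316, 43.2 and 1034 CPM in sham unsorted, Lamp1-depleted and Lamp1-enriched libraries and to 55.1, 14.2 and 150 CPM in BLM, where 2 of the 8 had under 10 reads in Lamp1-depleted cells. The 10 endothelial markers summed to 6361, 1430 and 11158 CPM in sham and to 4126, 1062 and 11734 CPM in BLM, and none of the 10 was under 10 reads in any library. Their part in the Cd9 values was not tested. Cd9 overlaps the antisense genes Gm28809 and Gm26728, which held at most 493 and 146 reads, and the strand setting of the counting is not given in the sources used here.

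Of the intracellular proteins, Fabp5 is a carrier of fatty acids (ENSMUSG00000027533; chr3:10012548-10016607, plus strand). Its level was 5.48, 2.13 and 2.72 CPM in sham unsorted, Lamp1-depleted and Lamp1-enriched libraries and 71.6, 11.3 and 11.1 CPM in BLM. Within each treatment the sorted libraries had overlapping intervals and the unsorted library lay above them. The log2 ratios in BLM were 2.66 (2.47 to 2.86) over Lamp1-depleted and 2.69 (2.57 to 2.82) over Lamp1-enriched cells, against 1.36 (1.02 to 1.72) and 1.01 (0.70 to 1.33) in sham. A near-identical copy, Fabp5l2, held 47, 32 and 23 reads in sham and 145, 34 and 33 in BLM, so a small share of Fabp5 reads may be split between the copies.

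Arg1 encodes arginase 1, which turns arginine into ornithine, a precursor of polyamines and proline (ENSMUSG00000019987; chr10:24915221-24927484, minus strand). Its sham level was low, at 1.22, 2.79 and 0.913 CPM from 59, 127 and 42 reads, and its BLM level was 51.2, 6.49 and 8.16 CPM. In sham the Lamp1-depleted library was the highest, and in BLM the unsorted library was above both sorted ones, whose intervals overlapped. Its log2 ratio over the Lamp1-depleted fraction was -1.19 (-1.67 to -0.74) in sham and 2.98 (2.73 to 3.24) in BLM, and over the Lamp1-enriched fraction 0.41 (-0.18 to 1.02) and 2.65 (2.50 to 2.80).

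**Figure D2:**
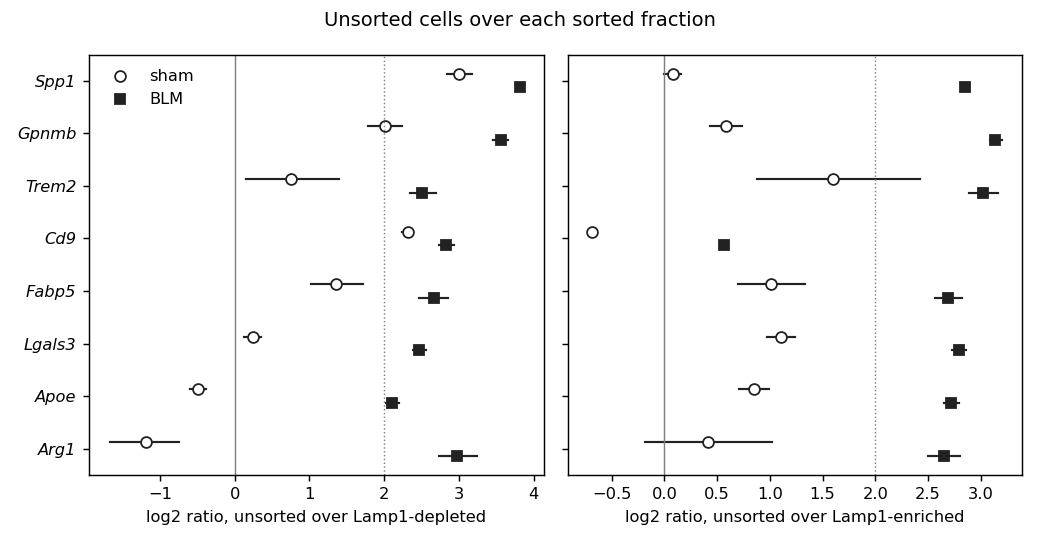
Log2 ratio of unsorted cells over Lamp1-depleted cells (left) and over Lamp1-enriched cells (right) for each gene, with open circles for sham, filled squares for BLM, horizontal lines for the 95% counting interval, a solid line at 0 and a dotted line at 2. The BLM ratio is the higher one for all 8 genes in both panels, and Cd9 alone stays below 2 in BLM, at 0.57 over Lamp1-enriched cells.

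To set the unsorted-over-sorted difference against the variation between treatments, both treatments were entered in an edgeR quasi-likelihood model with treatment and fraction as terms. The spread of a gene is how far its fraction effect differed between sham and BLM, on 2 residual degrees of freedom. The model draws this spread toward the trend over all genes, which counted for 8.91 prior degrees of freedom (median). The p-values thus rest mostly on spread shared between genes. Over both treatments, unsorted exceeded Lamp1-depleted cells for 6 of the 8 genes at a Benjamini-Hochberg adjusted p under 0.05, against 18.4% of all 21906 genes tested. These were Cd9 (log2 difference 2.53, adjusted p = 0.000823), Spp1 (3.43, adjusted p = 0.00172), Gpnmb (2.87, adjusted p = 0.00219), Fabp5 (2.03, adjusted p = 0.00424), Trem2 (1.71, adjusted p = 0.0121) and Lgals3 (1.37, adjusted p = 0.0471). Apoe (0.84, adjusted p = 0.243) and Arg1 (0.97, adjusted p = 0.373), whose sham and BLM ratios had opposite signs, did not pass. Against Lamp1-enriched cells the count was 3 of 8, with 2.71% of all genes tested called higher. Trem2 (2.50, adjusted p = 0.0234), Fabp5 (1.93, adjusted p = 0.0370) and Lgals3 (2.10, adjusted p = 0.0402) passed. Apoe (1.97, adjusted p = 0.0684), Gpnmb (1.92, adjusted p = 0.0797), Arg1 (1.95, adjusted p = 0.198), Spp1 (1.38, adjusted p = 0.280) and Cd9 (-0.06, adjusted p = 0.971) did not. Leaving out a library leaves its fraction with 1 sample, which is then assumed to vary like the other fractions, and it changed the calls over all genes as well. Without the BLM unsorted library, the counts were 3 of 8 against Lamp1-depleted cells (12.7% of all genes) and 0 of 8 against Lamp1-enriched cells (0.600% of all genes), where 3 genes had an unadjusted p under 0.05. Without the BLM Lamp1-enriched library, the second count was 0 of 8 (0.251% of all genes), with 5 genes at an unadjusted p under 0.05. It was 7 of 8 without the sham unsorted library (5.21% of all genes) or the sham Lamp1-enriched library (3.58% of all genes).

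Within each fraction, BLM was then set over sham, a comparison of 2 libraries with no replicate. In unsorted cells 7 of the 8 genes were at least 4-fold higher after BLM, against 4.96% of 22772 genes, and their median log2 ratio was 4.24, where all genes had a median of -0.07. Spp1 was 61.6-fold higher and ranked 7 among all genes tested, Trem2 58.8-fold and ranked 9, Arg1 41.7-fold and ranked 22, and Gpnmb 27.2-fold and ranked 64. Fabp5 (13.0-fold), Lgals3 (9.71-fold) and Apoe (8.54-fold) followed, and Cd9 was 1.44-fold higher.

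In Lamp1-depleted cells 4 of the 8 reached 4-fold after BLM, against 5.40% of all genes. These were Spp1 (log2 ratio 5.13), Trem2 (4.12), Gpnmb (3.21) and Fabp5 (2.40), while Arg1 (1.22), Lgals3 (1.05), Apoe (0.49) and Cd9 (0.01) were below it. Scaled by total reads alone, which moved the median of all genes here from -0.21 to -0.92, the count was 3 of 8, with Fabp5 at 1.69, and Apoe changed direction, to -0.23. In this library the noncoding RNA gene Gm26917 took 38.4% of the reads, where it took 0.884% to 7.10% in the others. The same library is a denominator of the BLM counts of genes above both sorted fractions. In Lamp1-enriched cells 5 of the 8 reached 4-fold, against 3.57% of all genes: Trem2 (4.45), Spp1 (3.17), Arg1 (3.14), Gpnmb (2.20) and Fabp5 (2.02, with an interval of 1.75 to 2.32 that spans the threshold). Lgals3 (1.59) and Apoe (1.22) were below it, and Cd9 was lower after BLM, at -0.72. Of the 3 fractions, the log2 ratio of Spp1 was thus lowest in Lamp1-enriched cells and that of Arg1 in Lamp1-depleted cells.

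**Figure D3:**
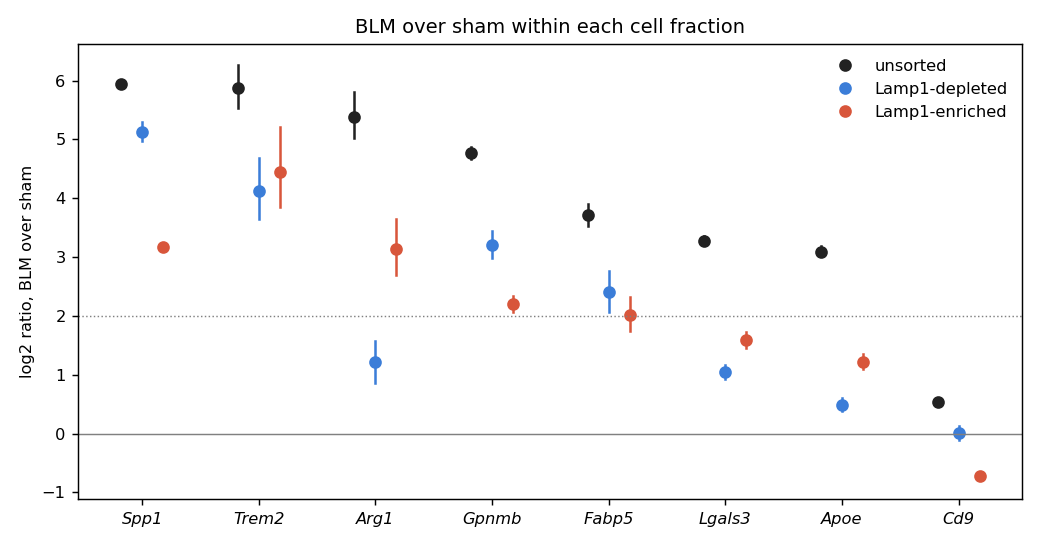
Log2 ratio of BLM over sham for each gene in unsorted (black), Lamp1-depleted (blue) and Lamp1-enriched (red) cells, with vertical lines for the 95% counting interval, a solid line at 0 and a dotted line at 2. The unsorted ratio is the highest of the 3 for every gene, from 0.53 for Cd9 to 5.94 for Spp1.

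General macrophage genes moved in the same libraries. The 10 pan-macrophage markers, which include the receptors Csf1r, Adgre1, Mertk and Fcgr1, summed to 379, 379 and 217 CPM in sham unsorted, Lamp1-depleted and Lamp1-enriched libraries and to 2115, 604 and 336 CPM in BLM, and none was under 10 reads in any library. Mertk alone gave 103, 18.3 and 114 CPM of the 3 sham sums. Its sham log2 ratio of Lamp1-enriched over Lamp1-depleted cells was 2.64, where the median of the 10 markers was -1.46. In BLM 4 of the 10 stood at least 4-fold above both sorted fractions (Mrc1 with a lower log2 ratio of 3.13, Fcgr1 with 2.64, Cd68 with 2.50 and Adgre1 with 2.10), and in sham 0 of 10 did. Alveolar macrophage markers did so in 9 of 11 in BLM and already in 4 of 11 in sham, and Siglecf was not matched by name. Among the 9, Fabp1 rested on 16 reads in BLM unsorted cells. The list summed to 641, 181 and 292 CPM in sham and to 2807, 251 and 408 CPM in BLM. Chil3 alone gave 1745 CPM of the BLM unsorted sum, and Car4 gave 169 CPM of the sham Lamp1-enriched sum. In unsorted cells 4 of the 11 were at least 4-fold higher after BLM and 0 at least 4-fold lower. The median log2 ratio of the 11 was 1.72, but the list was divided. Fabp1 (-1.99), Krt79 (-1.77), Car4 (-0.55), Cidec (-0.48) and Ear1 (-0.05) were lower after BLM. The other markers were higher, up to 3.69 for Atp6v0d2. Of the monocyte and interstitial macrophage markers, 4 of 12 stood at least 4-fold above both sorted fractions in BLM and 0 of 11 in sham. The median lower log2 ratio of this list in BLM was 1.29. The complement genes C1qa (lower log2 ratio 2.61), C1qb (2.56) and C1qc (2.44) were among the 4, and in sham they stood at 1.05, 1.04 and 1.12. Lowest in BLM were Ly6c2 (-2.38) and Lyve1 (-1.81). Lamp1 mRNA itself was 319 CPM in sham unsorted, 146 in Lamp1-depleted and 491 in Lamp1-enriched cells, and 501, 111 and 378 CPM in BLM, so it was highest in the Lamp1-enriched library in sham and in the unsorted library in BLM. The pan-leukocyte gene Ptprc was 462, 2593 and 202 CPM in sham and 866, 1267 and 173 CPM in BLM.

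To describe the 8 genes beside macrophage genes of the same library, each log2 level was taken relative to the median of the 10 pan-macrophage markers. This median was 2.47 higher in BLM than in sham unsorted cells, 0.31 higher in Lamp1-depleted and 1.37 higher in Lamp1-enriched cells. On that relative scale, BLM exceeded sham in unsorted cells by 3.47 for Spp1, 3.40 for Trem2, 2.91 for Arg1, 2.29 for Gpnmb, 1.23 for Fabp5, 0.81 for Lgals3 and 0.62 for Apoe as log2 differences, and the value for Cd9 was -1.95. For Spp1, Trem2, Arg1 and Gpnmb the BLM-over-sham difference thus exceeded that of the general markers by more than 2 log2 units, and for Lgals3 and Apoe by less than 1.

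On the relative scale the 3 fractions lay closer together in BLM than in sham for every gene, though for Trem2 the spans were nearly equal. The pan-macrophage median itself spanned 2.58 log2 units over the 3 BLM fractions. Relative to it, the span over the 3 BLM fractions was 0.20 for Fabp5, 0.21 for Lgals3, 0.44 for Trem2, 0.49 for Apoe and 0.51 for Arg1. It was 1.10 for Gpnmb, 1.35 for Spp1 and 2.39 for Cd9. In sham the spans were 0.37 for Lgals3, 0.46 for Trem2, 0.79 for Apoe, 1.49 for Arg1, 1.53 for Fabp5, 2.60 for Gpnmb, 4.10 for Spp1 and 4.18 for Cd9. Beside general macrophage genes, Spp1 in sham was lowest in Lamp1-depleted cells, at -1.90, and highest in Lamp1-enriched cells, at 2.21. How far the number of macrophages in each library sets the unsorted values was not tested.

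**Figure D4:**
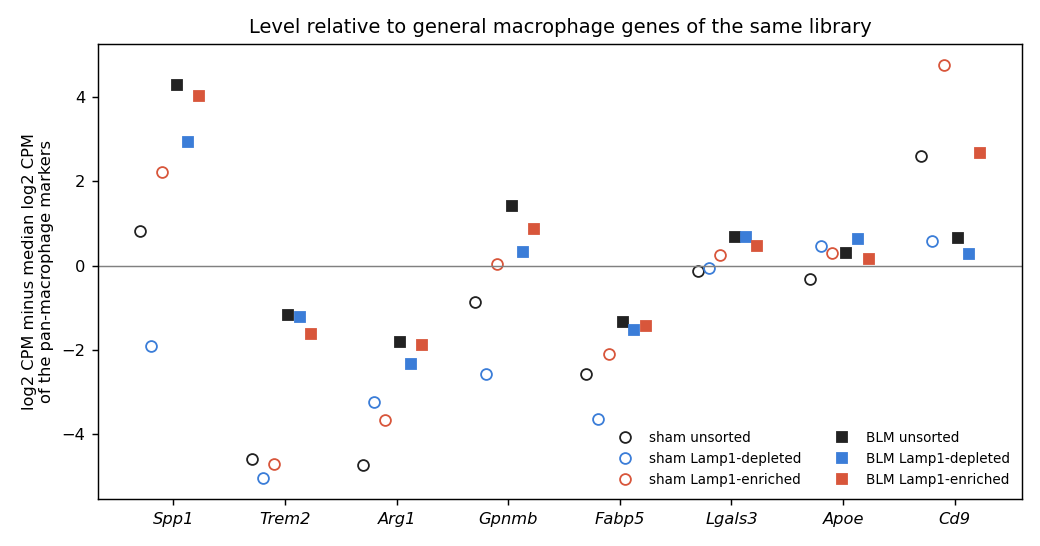
Log2 CPM of each gene minus the median log2 CPM of the 10 pan-macrophage markers in the same library, with open circles for sham, filled squares for BLM and colors for the cell fraction. In BLM the 3 fractions lie within 0.51 log2 units of each other for Fabp5, Lgals3, Trem2, Apoe and Arg1, and 2.39 apart for Cd9.

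Other genes of the same macrophage programs were counted in the same way. Of 19 lipid and lysosome genes tested, 12 stood 4-fold or more above the sorted fractions in BLM, with a median lower log2 ratio of 2.15, and 0 of 19 were in sham, with a median of 0.00. The highest were Ctsk, a collagen-degrading cathepsin (3.20), Itgax, the integrin Cd11c (3.01), the scavenger receptor Msr1 (2.83) and the lectin receptor Clec7a (2.72), and the lowest were the fatty acid transporter Cd36 (-1.78) and the protease inhibitor Cst7 (-1.69). Of 15 matrix and growth factor genes, 6 reached 4-fold in BLM and 0 in sham. Chil3 (3.16), Mrc1 (3.13), the elastase Mmp12 (3.02) and Pdgfc (2.66) were the highest and Mmp9 (-1.66) and Pdgfb (-0.99) the lowest.

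Genes that act with single members of the 8 were counted too. None of the 11 Trem2 signaling genes and partners reached 4-fold above both sorted fractions in either treatment. The 2 fractions differed here. In BLM, 4 of the 11 were at least 4-fold above Lamp1-enriched cells (median log2 ratio 1.82), against 1983 of 22149 genes. Above Lamp1-depleted cells 2 of the 11 were (median -0.81), against 3566 of 21431 genes. By the lower ratio in BLM, Ms4a7 was the highest of the 11 (1.82). Tyrobp, the adaptor of Trem2, stood at 0.79, from 0.79 over Lamp1-depleted and 2.62 over Lamp1-enriched cells. Hcst (-1.96), Ms4a4a (-1.43) and the phospholipase Plcg2 (-1.39) were lowest. For the osteopontin receptors the BLM count was 1 of 9, with Cd44 at 2.07 and the integrin Itgb3 lowest at -1.20. For the apolipoprotein E receptors it was 1 of 6, with Sort1 at 2.21 and Scarb1 lowest at -1.36. Of 9 genes of arginine and polyamine metabolism, the arginine transporter Slc7a2 reached 3.10, and Nos2, the nitric oxide synthase that uses the same substrate as arginase, was lowest at -1.02. Of the relatives of Lgals3, 0 of 7 galectins reached 4-fold in BLM, of which Lgals1 was the highest at 1.26, and among the relatives of Cd9 the count was 1 of 8 tetraspanins, Cd63 at 2.33. The fatty acid binding proteins other than Fabp5 held 1 of 6, Fabp1, a gene of resident alveolar macrophages that was also counted in sham. In BLM this rested on 16 reads in unsorted cells and 0 in each sorted library. Fabp1 was lower in BLM than in sham unsorted cells, where it had 80 reads (log2 ratio -1.99). In sham the counts were 0 for all of these lists except the fatty acid binding proteins, with 2 of 5.

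**Figure D5:**
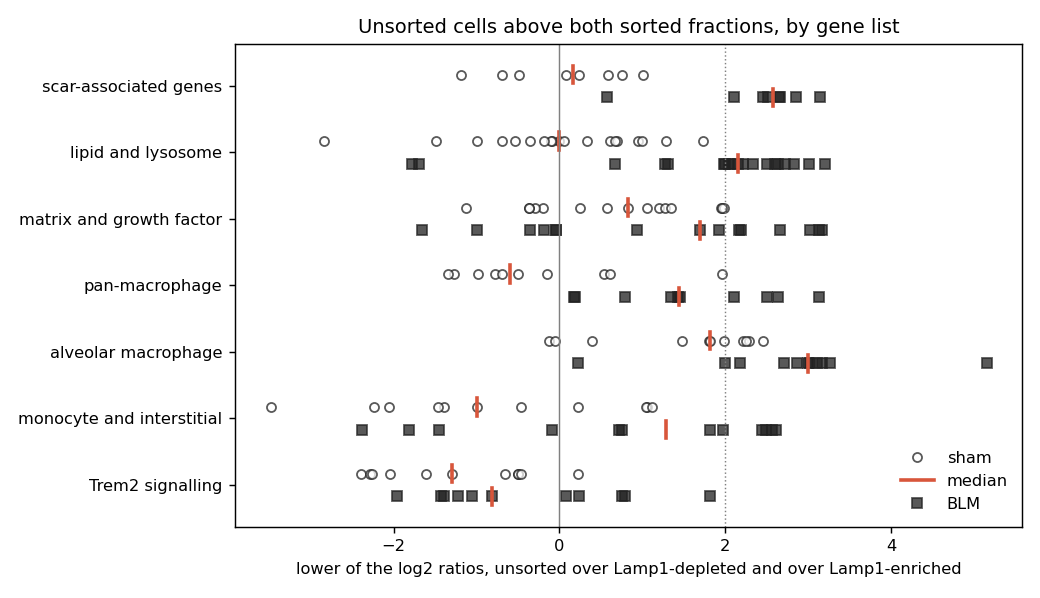
Lower of the log2 ratios of unsorted cells over Lamp1-depleted and over Lamp1-enriched cells for each gene of the 7 lists named at the left, with open circles for sham, filled squares for BLM, red bars for list medians, and a dotted line at 2. The median moves from 0.16 in sham to 2.58 in BLM for the scar-associated genes and from 0.00 to 2.15 for the lipid and lysosome genes, and no Trem2 signaling gene passes 2.

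Markers of other cells were also counted. In BLM, 0 of 9 dendritic cell, 0 of 7 neutrophil, 0 of 8 T cell, 0 of 7 B cell, 0 of 7 NK cell, 0 of 10 endothelial, 0 of 8 platelet, 0 of 8 alveolar type 2 and 0 of 5 mesothelial markers stood 4-fold or more above the sorted fractions. The counts were 1 of 7 for alveolar type 1 and 1 of 9 for fibroblast markers, both from Pdpn, which is on both lists, and 1 of 8 for airway markers, from Foxj1. In sham the only one of these lists with such genes was the mesothelial one, with 2 of 5. The share of all genes was 3.30% in BLM, so a count of 0 in lists this short carries little weight. In BLM, 10 of 10 endothelial and 8 of 8 platelet markers were at least 4-fold higher in Lamp1-enriched than in Lamp1-depleted cells. For T, B and NK cell markers, 8 of 8, 7 of 7 and 7 of 7 were at least 4-fold lower. Unsorted cells can hardly exceed both fractions for genes that the sort gathered in 1 of them.

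The genes with the most similar profile over the 6 libraries were named for each member by the root mean square (RMS) difference of centered log2 levels among 17927 genes. Most of these names depend on the measure, since 3 of the 24 were shared when Pearson r was used. The nearest were Mmp12 (RMS 0.611), Gm6209 and Syngr1 for Spp1. For Gpnmb they were the metalloproteinase Mmp19 (0.288), Prune2 and F7. Those nearest to Trem2 were the complement genes C1qb (0.523), C1qc and C1qa. Fabp5 was nearest to Cebpa (0.249), Hmox1 and Fcrls, and Arg1 to Msr1 (0.318), Gm37199 and Rnf128. For Lgals3 they were Bhlhe41 (0.179), Lyz2 and Fcgr3, and for Apoe they were Naaa (0.135), Gpr160 and Cfp. Cd9 was nearest to Peli2 (0.187), Sh3bgrl2 and Scamp1.

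The 8 genes did not form a single profile. Lgals3 and Apoe were the closest pair, with an RMS difference of 0.303, and 18 other genes were nearer to each of them than the partner. Fabp5 and Gpnmb differed by 0.530 and Spp1 and Gpnmb by 0.824. Cd9 was 1.717 away from Lgals3, its nearest member, and 13908 of the 17927 genes were nearer to Cd9 than that. The 3 libraries of a treatment behind these profiles may share their mice.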

How the data were processed

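RNA from 6 libraries of mouse lung cells, 1 per condition, was analyzed. The authors deposited raw counts of reads for each Ensembl gene, with no normalization by the authors. The submitters' processing notes name Trimmomatic 0.36, STAR 2.5.2b, featureCounts, Subread 1.5.2, DESeq2 and the build GRCm38; the annotation and strand setting are not given in the sources used here. Gene positions and exon lengths came from GENCODE release M21 (GRCm38), and promoters from RefSeq (GRCm38.p6), where 6 of the 8 genes were matched by symbol.

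Groups were read from the sample titles. TMM factors (edgeR 4.0.16, R 4.3.3) ran from 0.699 to 1.19. Log2 ratios added 0.5 reads, adjusted for library size, and used genes with at least 10 reads in the highest compared library, with 95% Clopper-Pearson intervals for counting error (Python 3.11.15, scipy 1.17.1, pandas 2.3.3, numpy 2.4.6, matplotlib 3.10.9). PCR reads without molecular identifiers are not independent molecules. No p-value was given for a single condition. The quasi-likelihood test was fitted to all 6 libraries with filterByExpr, treatment and fraction; treatments were not tested, since the 3 fractions of a treatment may come from the same lungs. DESeq2 1.42.0 was an alternative. Nearest genes needed at least 50 reads in the highest library. Both the ratios and the model were run on simulated data. For the model, the simulated counts held no treatment effect and the same fraction effect in both treatments, unlike the values above. Only unsorted over Lamp1-depleted cells was checked there.

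The 8 genes, the 27 lists and the motifs were written from general knowledge with earlier results of these data known. All 8 genes and, from each other list, up to 4 genes with the largest and smallest lower log2 ratio in BLM were to be named. Genes may be on several lists. Pdpn, Foxj1 and Fabp1 were named where a count was 1, Tyrobp as the adaptor of Trem2, and Lamp1 and Ptprc for the sort, after their values were seen. Genes named to show how a list divided or what made up its sum were also chosen after their values were seen. A gene of the monocyte and interstitial list is not reported here.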

Additional observations from a re-analysis of the deposited data

Results flagged for a closer look

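Opposite directions in the sham and BLM pools were found for 3 of the 8 genes, and with 1 library per condition the difference was not tested. For Cd9, the log2 ratio of unsorted over Lamp1-enriched cells was 0.57 in BLM and -0.69 in sham. For Apoe, the log2 ratio of unsorted over Lamp1-depleted cells was 2.11 in BLM and -0.49 in sham. For Arg1, the same ratio was 2.98 in BLM and -1.19 in sham, where the sham value rests on 59 reads in unsorted and 127 reads in Lamp1-depleted cells. The 95% counting intervals of these ratios all lay away from 0.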

How the results depend on the processing

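With 1 library per condition, no replicate of a condition could be left out of a ratio. The BLM median over the Lamp1-depleted fraction, 2.75, was 2.60 with DESeq2 size factors and 3.25 with total counts only, which also moved the median of all genes from 0.34 to 0.84 and the BLM-over-sham log2 ratio of Apoe in Lamp1-depleted cells to -0.23. The median gain of the 8 genes relative to pan-macrophage markers, 1.76, was 1.47 without Cd68, Mrc1 and Tyrobp in that list. At a log2 threshold of 1, 1 gene stood above both fractions in sham (7.22% of all genes), and at a threshold of 3, 1 gene did in BLM (1.13%) and 3 genes were higher in BLM Lamp1-enriched cells than in sham (1.34%). Leaving out 1 library at a time, the quasi-likelihood count of genes higher than in Lamp1-depleted cells ranged from 3 to 8, and that against Lamp1-enriched cells from 0 to 7. The latter was 6 with total counts only (3.99% of all genes), 7 with all genes of at least 1 read (3.74%) and 5 with the DESeq2 Wald test (3.02%), against 3 (2.71%). Of the 24 nearest genes, 3 were shared when Pearson r was used. Added after seeing the data, leaving out the BLM Lamp1-depleted library gave 7 genes at least 4-fold above Lamp1-enriched cells, against 8.50% of all genes, and without Cd9 the medians over Lamp1-depleted and Lamp1-enriched cells were 2.66 and 2.79 in BLM and 0.75 and 0.85 in sham. The causes were not tested. Treatment was a block in the quasi-likelihood fit, and the labels give no replicate numbers for a further pairing.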
